A study of Homo sapiens with 4 samples.

Results

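Genes of apolipoproteins and of lipoprotein assembly were examined in cells labelled HepG2, wild-type or targeted for TXNDC9, namely APOA1, APOA2, APOB, APOC1, APOC3, APOE, APOH, APOM, MTTP and TM6SF2. These 10 genes were chosen by symbol, as the lines of the deposited expression table whose gene name matches, out of 57979 genes with values, and each symbol stood on 1 line. HepG2 is a human liver cancer cell line. Polyadenylated RNA was sequenced in 4 libraries, 2 of wild-type cells (WT) and 2 of cells in which TXNDC9, a thioredoxin domain protein, had been targeted with CRISPR-Cas9 (TXNDC9-KO). The study asked how the loss of TXNDC9 changes gene expression in these cells. All cells were grown in the same medium, with no other agent named in the labels. Per the study's methods the targeted cells received a lentivirus carrying Cas9 and a guide RNA against TXNDC9, and neither the guide used for each library nor the origin of a line from 1 clone is given in the sources used here. Nothing in the labels says that the 2 libraries of a group came from separate cultures, so p-values measure the spread between these libraries, which may be technical.

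Lipoproteins carry cholesterol and triglycerides through the blood, and the liver and the small intestine make most of them. In the endoplasmic reticulum, microsomal triglyceride transfer protein (encoded by MTTP) loads lipid onto apolipoprotein B as the chain is made, TM6SF2 is a membrane protein needed for full lipidation of these particles, and the exchangeable apolipoproteins then join their surface. Apolipoproteins A1 and A2 are the main proteins of high density lipoprotein, C1 and C3 modulate lipases and receptors, E is a ligand of lipoprotein receptors, M carries sphingosine-1-phosphate, and apolipoprotein H binds phospholipids.

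Values are in FPKM, fragments scaled to transcript length and to the mapped fragments of a library, as the authors deposited them, so levels of different genes are per length. The files hold no counts, the depth of the libraries is unknown, and no floor of detection can be given. The FPKM of all genes summed to 805816 and 971102 in the WT libraries and to 535973 and 568279 in the TXNDC9-KO libraries. The targeted gene itself, TXNDC9, was at 35.1 and 37.3 FPKM in the WT libraries and at 21.9 and 27.6 FPKM in the TXNDC9-KO libraries. Its log2 fold change (TXNDC9-KO minus WT) was −0.55 with a standard error (SE) of 0.14. This was short of a 2-fold change, and its adjusted p by limma (Benjamini-Hochberg) of 0.0145 missed the threshold of 0.01. Rescaling to TPM turned the change to 0.12 (limma adjusted p = 0.449). These are RNA levels, while the paper reports reduced TXNDC9 protein by western blot in targeted HepG2 cells.

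The label HepG2 was checked against markers of hepatocytes and of this line before any comparison, and most of them were listed at 0 or at low values. Of 15 markers, 12 were under 1 FPKM in every library, the highest of these values being 0.449 FPKM. Albumin (ALB), the most abundant plasma protein made by liver cells, was at 0.0260 FPKM in WT replicate 1 and listed at 0 in the other 3 libraries. Alpha-fetoprotein (AFP), a secreted protein of fetal liver and of liver cancer, was at 0.262 and 0.449 FPKM in WT and at 0 and 0.0996 FPKM in TXNDC9-KO. AHSG and GPC3 were listed at 0 in all 4 libraries. The other 3 markers were high in every library: the keratins KRT8 (4303, 5444, 1408 and 1418 FPKM in WT replicates 1 and 2 and TXNDC9-KO replicates 1 and 2) and KRT18 (2782, 3709, 927 and 976 FPKM) and the noncoding RNA H19 (7278, 8972, 2069 and 2036 FPKM). The libraries labelled HepG2 thus held the keratins and H19, and 12 of the 15 markers, with the plasma proteins that define hepatocytes among them, went against the label.

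A value of exactly 0 needs care in this table. All 13 genes of mitochondrially encoded proteins, which every cell with mitochondria uses, were listed at 0 in all 4 libraries, while 0 of 81 cytosolic ribosomal protein genes were. Of 19628 protein-coding genes, 3432 (17.5%) were listed at 0 throughout. A gene at 0 is therefore called listed at 0 here, and not unexpressed.

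Markers of other cell types varied by list. Of 5 cholangiocyte markers, 4 had a mean under 1 FPKM and EPCAM was listed at 0, yet the keratin KRT7 alone brought the sum of this list to 2295 and 4072 FPKM in WT and 527 and 559 FPKM in TXNDC9-KO. The 7 enterocyte markers, of the other main cell type that makes lipoproteins, summed to 8.98 and 5.55 FPKM in WT and 7.26 and 6.29 FPKM in TXNDC9-KO, nearly all of it ALPI, with CDX2, FABP2 and LCT at 0. The 7 stellate cell or fibroblast markers summed to 58.3 and 54.4 FPKM in WT and 41.8 and 38.3 FPKM in TXNDC9-KO. Of these 5 had a mean above 1 FPKM, led by COL1A1 (31.5, 22.8, 20.7 and 17.5 FPKM) and COL3A1 (19.4, 24.0, 13.4 and 13.1 FPKM), PDGFRB was called higher (1.55) and COL1A2 was listed at 0. The 7 macrophage markers summed to between 4.21 and 7.71 FPKM, with CD163 and C1QA at 0, and the 6 endothelial markers to 0.810 and 1.23 FPKM in WT against 4.43 and 3.46 FPKM in TXNDC9-KO, with KDR and LYVE1 at 0. Most of the endothelial sum was CDH5, which was called higher (0.751, 1.07, 4.26 and 3.14 FPKM, log2 fold change 1.92, limma adjusted p = 0.00195). The 5 neuron markers, none at 0 throughout, summed to 21.4 and 26.0 FPKM in WT and to 6.90 and 7.17 FPKM in TXNDC9-KO, most of it TUBB3. Other markers were called lower, namely KRT7 (−2.49), SNAP25 (−1.04) and TUBB3 (−1.94), and of the hepatocyte and HepG2 list KRT8 (−1.78), KRT18 (−1.76) and H19 (−1.98). Of all tested genes 15.3% were called lower and 14.2% higher. The part of these marker levels in the results below was not tested.

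**Figure D1:**
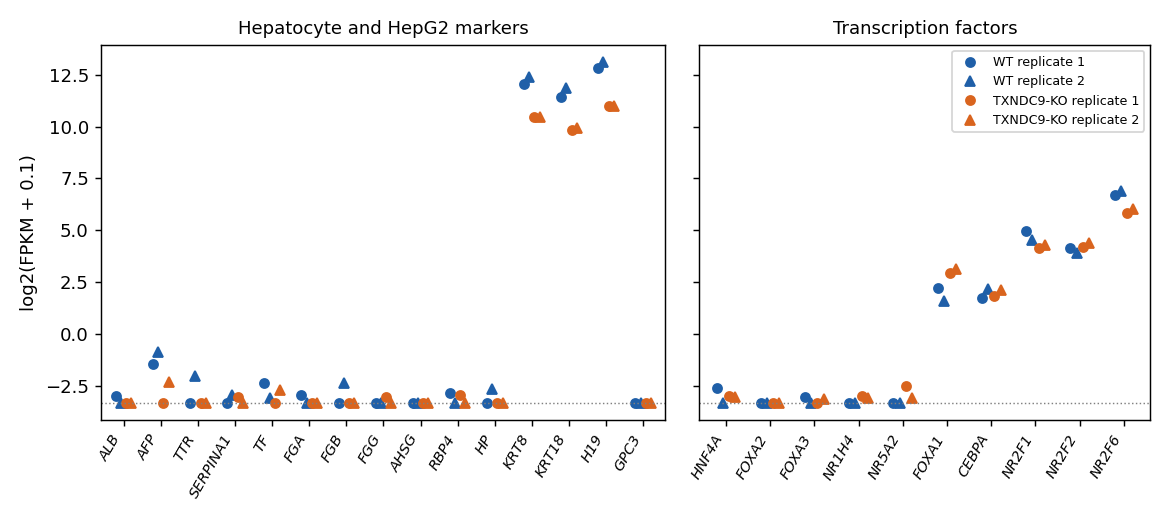
Each point is 1 library, blue for WT and orange for TXNDC9-KO, and the vertical axis is log2(FPKM + 0.1), with a dotted line where a gene is listed at 0. Among the hepatocyte and HepG2 markers only KRT8, KRT18 and H19 stood high, and of the transcription factors shown HNF4A, FOXA2, FOXA3, NR1H4 and NR5A2 lay at or near the dotted line.

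The 10 genes were low in these libraries, and APOM was the only one above 1 FPKM in all 4. APOA1, APOC3, APOH and TM6SF2 were listed at 0 in all 4 libraries, 6 genes were above 0 in at least 1 library, and 3 of the 10, APOM, APOE and APOC1, were above 0 in all 4. In every library 7 of the 10 stayed under 0.2 FPKM. Ordered by their mean over the 4 libraries, the genes above 0 ran APOM, APOE, APOC1, APOA2, MTTP and APOB. Of the protein-coding genes in the table, 53.5% had a lower mean than APOM, 41.9% a lower mean than APOE, 39.2% than APOC1, 33.4% than APOA2, 30.4% than MTTP and 17.7% than APOB. The lowest APOM value (2.77 FPKM) lay above the highest APOE value (1.21 FPKM), while the ranges of APOE and APOC1, of APOC1 and APOA2, of APOA2 and MTTP and of MTTP and APOB overlapped over the 4 libraries.

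**Figure D2:**
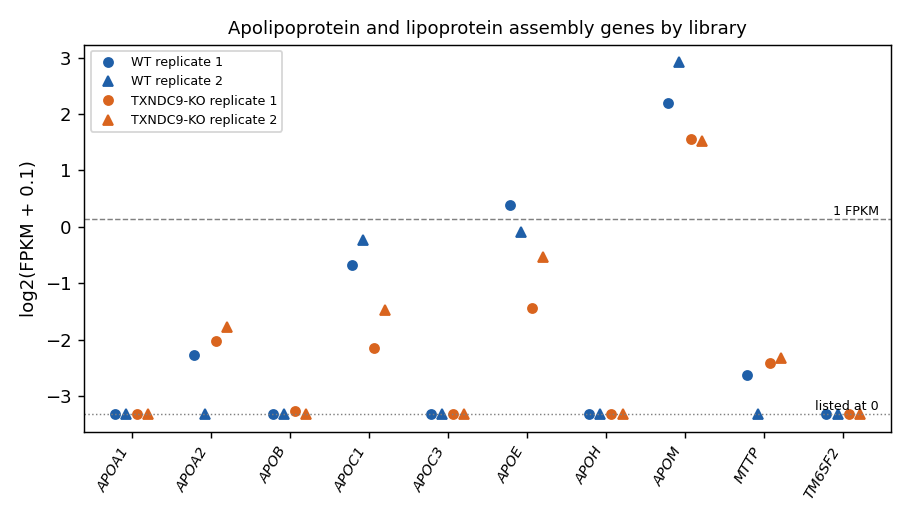
Each point is 1 library (circles replicate 1, triangles replicate 2, blue WT, orange TXNDC9-KO) and the vertical axis is log2(FPKM + 0.1). APOM was the only one of the 10 genes above the dashed line at 1 FPKM in every library, and 4 genes lay on the dotted line of genes listed at 0 in all libraries.

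Among the structural proteins of the particles, APOB encodes the single large protein of very low and low density lipoprotein. Its gene lies on chromosome 2 of hg38 from 21001429 to 21044073, minus strand. APOB was listed at 0 in both WT libraries and in TXNDC9-KO replicate 2, and was at 0.00397 FPKM in TXNDC9-KO replicate 1. APOA1 (chromosome 11, 116835751 to 116837622, minus strand), the main protein of high density lipoprotein, had no value above 0. APOA2 (chromosome 1, 161222292 to 161223631, minus strand), its partner in these particles, was at 0.107 and 0 FPKM in WT and at 0.147 and 0.192 FPKM in TXNDC9-KO. Both TXNDC9-KO values of APOA2 lay above both WT values, at levels where 1 WT library was listed at 0. The share of all genes in this order at such levels was not counted, so nothing is read from it.

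The 2 assembly genes were no higher. MTTP (chromosome 4, 99564081 to 99623997, plus strand) was at 0.0614 and 0 FPKM in WT and at 0.0883 and 0.0991 FPKM in TXNDC9-KO. As with APOA2, the groups did not overlap and 1 WT library was listed at 0. The share of all genes with TXNDC9-KO above WT at such levels was not counted, so this order may be common. TM6SF2 (chromosome 19, 19264364 to 19273391, minus strand) was listed at 0 in all 4 libraries.

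Among the surface and exchangeable apolipoproteins, APOE and APOC1 were lower in both TXNDC9-KO libraries than in both WT libraries, at levels near 1 FPKM or under it. APOE (chromosome 19, 44905791 to 44909393, plus strand) was at 1.21 and 0.839 FPKM in WT and at 0.267 and 0.586 FPKM in TXNDC9-KO, with means of 1.03 ± 0.265 and 0.426 ± 0.226 FPKM (SD, n = 2). APOC1 (chromosome 19, 44914247 to 44919349, plus strand), which inhibits lipoprotein uptake and the transfer of cholesteryl ester, was at 0.529 and 0.753 FPKM in WT and at 0.124 and 0.260 FPKM in TXNDC9-KO, with means of 0.641 ± 0.159 and 0.192 ± 0.0961 FPKM (SD, n = 2). For both genes the groups did not overlap, and in bulk libraries fewer cells with an RNA and less RNA per cell cannot be told apart. This order was common at such levels: of 3 of the 10 genes with a mean between 0.1 and 1 FPKM, 2 had both TXNDC9-KO values below both WT values, beside 1345 of all 5780 genes in that range (23.3%). The ratio of APOE to APOC1 within a library, which no scaling of a library can move, was 1.20 and 0.16 in WT and 1.10 and 1.17 in TXNDC9-KO on the log2 scale. The difference of 0.46 was less than the spread between the WT libraries (exact two-sided permutation test, p = 1, where 2 against 2 libraries cannot give less than 0.333), and it became −0.06 without WT replicate 2.

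APOC3 (chromosome 11, 116829706 to 116833072, plus strand), an inhibitor of lipoprotein lipase, and APOH (chromosome 17, 66212033 to 66256525, minus strand) completed the genes listed at 0 in all 4 libraries. With APOA1 and TM6SF2 they gave no value to compare.

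APOM (chromosome 6, 31652416 to 31658210, plus strand) was the only one of the 10 genes whose mean passed 1 FPKM, the filter for the test, so the other 9 were not tested. It was at 4.50 and 7.46 FPKM in WT and at 2.83 and 2.77 FPKM in TXNDC9-KO. Both TXNDC9-KO libraries lay below both WT libraries, the WT libraries differed from each other more than the TXNDC9-KO libraries did, and the means were 5.98 ± 2.09 and 2.80 ± 0.0464 FPKM (SD, n = 2), a 2.13-fold lower mean in TXNDC9-KO. On the scale of log2(FPKM + 0.1), which understates the change of low genes, APOM differed by −1.02 (SE 0.25). Its limma adjusted p of 0.0135, by Benjamini-Hochberg over all 13246 genes tested, missed the threshold of 0.01, and the unadjusted p was 0.00729. So 0 of the 10 genes were called lower and 0 higher by limma at that threshold with at least a 2-fold change, beside 2021 genes called lower (15.3%) and 1885 called higher (14.2%) of the 13246. Non-overlapping groups with TXNDC9-KO below WT, as for APOM, were found for 6086 of the 13246 genes (45.9%).

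The call on APOM turned with the processing. Bringing the libraries to an equal FPKM sum (TPM), which moved the median over all tested genes from −0.09 to 0.59 on the log2 scale, left APOM at −0.36 (limma adjusted p = 0.182), so that it stayed below the median of all genes on either scale. A correction for transcript length and GC content also left it at −0.36 (limma adjusted p = 0.177). Centring each library on its median gave −1.17 (adjusted p = 0.00748) and leaving out WT replicate 1 gave −1.38 (adjusted p = 0.000742), both past the threshold by limma, while leaving out WT replicate 2 gave −0.66 (adjusted p = 0.0175), which missed it. Across all genes, 48.3% of the calls were higher in TXNDC9-KO, beside 90.7% after rescaling to TPM and 35.8% after centring. The other 5 genes with any value above 0 could be fitted only without the filter, over 26435 genes. There limma gave log2 fold changes of −1.15 for APOE (SE 0.46, adjusted p = 0.1395), −1.37 for APOC1 (0.43, 0.0785), 0.90 for APOA2 (0.45, 0.221), 0.61 for MTTP (0.33, 0.247) and 0.03 for APOB (0.16, 0.906), and none passed.

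The first bases of the annotated APOM gene overlap BAG6, which encodes a chaperone of the cytosol and nucleus and lies on the opposite strand (chromosome 6, 31639028 to 31652705). BAG6 was named for this overlap after its values had been seen. The genes share 290 bases in GENCODE release 44, and 136 bases lie in exons of both, in 2 of the 3 annotated APOM transcripts, out of 1237 exon bases of APOM. BAG6 was at 257.8 and 327.8 FPKM in WT and at 134.1 and 138.5 FPKM in TXNDC9-KO, and it was called lower (log2 fold change −1.09, SE 0.15, limma adjusted p = 0.00176). With TPM BAG6 was at −0.41 and with the length and GC correction at −0.88, both short of 2-fold. The log2 ratio of APOM to BAG6 within a library was −5.84 and −5.46 in WT and −5.57 and −5.65 in TXNDC9-KO. The difference between the groups was 0.04, less than the spread within WT (exact two-sided permutation test, p = 1). Whether reads were assigned by strand is not given in the sources used here, so reads of APOM and of BAG6 in the shared bases cannot be told apart. The genes annotated across APOA1, APOB, APOC1, APOE, MTTP and TM6SF2 were at or near 0 themselves, apart from the antisense RNA APOA1-AS, which shares 1506 bases with APOA1 and was at 0.419 FPKM in TXNDC9-KO replicate 1 and at 0 in the other 3 libraries.

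**Figure D3:**
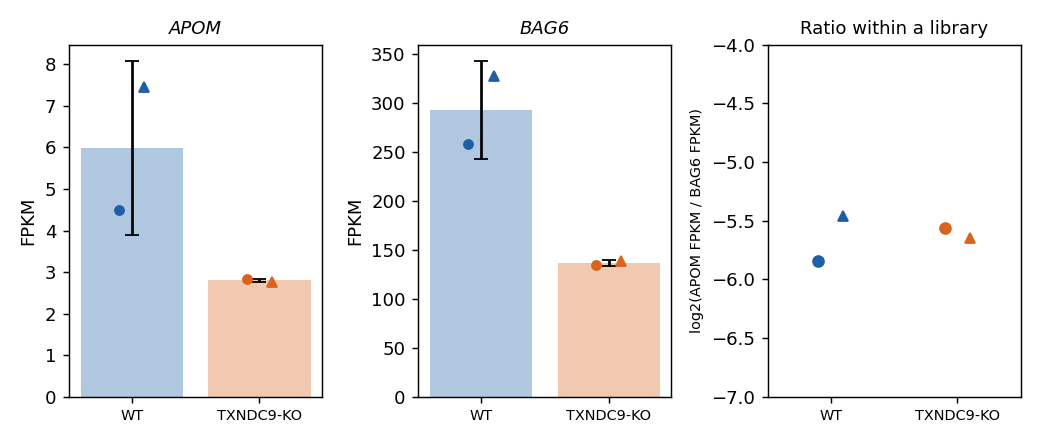
Bars are group means of FPKM with SD (n = 2) for APOM and BAG6, points are libraries (circles replicate 1, triangles replicate 2), and the right panel gives the log2 ratio of APOM to BAG6 in each library. Both genes stood lower in both TXNDC9-KO libraries, while the ratios of the TXNDC9-KO libraries (−5.57 and −5.65) lay between those of the WT libraries (−5.84 and −5.46).

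The summed FPKM of the 10 genes was 6.41 and 9.05 in WT and 3.46 and 3.90 in TXNDC9-KO, with means of 7.73 ± 1.87 and 3.68 ± 0.312 (SD, n = 2). The groups did not overlap, and the exact two-sided permutation test gave p = 0.333, the smallest that 2 against 2 libraries allow. As a share of all FPKM in a library, the 10 genes held 0.000795% and 0.000932% in WT and 0.000646% and 0.000687% in TXNDC9-KO (exact permutation test, p = 0.333). APOM held 70.2% and 82.4% of the sum in WT and 81.8% and 70.9% in TXNDC9-KO, so the sum mainly followed this 1 gene. Without APOM the sum was 1.91 and 1.59 FPKM in WT and 0.630 and 1.14 FPKM in TXNDC9-KO.

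Promoter sequence was read for the 7 of the 10 genes that have an entry in the RefSeq table used (10 windows, GRCh38.p14), as the 250 bases before each start site. Liver-enriched factors such as HNF4 and FOXA are known to drive many of these genes, so the windows were searched on both strands for TATAAA, CAAAGTCCA (an HNF4 site), AGGTCA (a nuclear receptor half-site), TGTTTAC (a FOXA site) and CACGTG (an E-box). Of 35116 RefSeq windows of this length, 10.7% held TATAAA, 0.325% CAAAGTCCA, 12.1% AGGTCA, 2.98% TGTTTAC and 6.34% CACGTG. Shown are APOM, the only gene tested, and the 2 genes with any match, with matches in capitals and each sequence 5′ to 3′ on its gene's strand. The APOM window is chr6:31655644-31655893 (plus strand). It precedes a RefSeq start inside the annotated span of the gene and lies past the bases shared with BAG6. The MTTP window is chr4:99574574-99574823 (plus strand, before the downstream of its RefSeq starts) and the APOA2 window chr1:161223629-161223878 (minus strand).
APOM: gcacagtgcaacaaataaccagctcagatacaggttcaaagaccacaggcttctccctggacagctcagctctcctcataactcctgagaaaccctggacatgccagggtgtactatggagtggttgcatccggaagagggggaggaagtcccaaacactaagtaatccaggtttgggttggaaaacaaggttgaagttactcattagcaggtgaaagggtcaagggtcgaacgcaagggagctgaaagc
MTTP: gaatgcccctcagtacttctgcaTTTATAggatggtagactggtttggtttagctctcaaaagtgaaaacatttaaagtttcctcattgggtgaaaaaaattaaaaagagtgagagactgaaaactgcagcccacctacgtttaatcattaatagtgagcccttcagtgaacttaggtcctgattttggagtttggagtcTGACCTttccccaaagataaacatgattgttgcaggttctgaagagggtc
APOA2: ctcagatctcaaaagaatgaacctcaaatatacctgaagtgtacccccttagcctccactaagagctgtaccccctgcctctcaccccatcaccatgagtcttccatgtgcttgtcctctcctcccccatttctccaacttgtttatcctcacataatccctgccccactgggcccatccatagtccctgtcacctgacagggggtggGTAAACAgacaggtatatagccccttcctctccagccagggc
APOM, the gene with the highest level, held none of these letters in its window. MTTP held TATAAA on the opposite strand from 227 to 222 bases and AGGTCA on the opposite strand from 50 to 45 bases before its start. APOA2 held TGTTTAC on the opposite strand from 42 to 36 bases before its start. A match is a run of letters and was not tested as a binding site.

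Of the transcription factors known for these genes, several that mark liver were listed at or near 0, while others had ordinary values, and those called were higher in TXNDC9-KO. HNF4A, a nuclear receptor that governs much of hepatocyte expression, was at 0.0628 and 0 FPKM in WT and at 0.0243 and 0.0209 FPKM in TXNDC9-KO. FOXA2, NR0B2, PROX1 and GATA4 were listed at 0 in all 4 libraries. Factors of the same families that are not restricted to liver had values, such as NR2F2, also called COUP-TFII, at 17.8, 14.7, 18.0 and 20.6 FPKM in the WT and then the TXNDC9-KO libraries. Of 35 listed transcription factors 22 were tested, 0 were called lower and 4 higher, and the median of the tested genes was −0.04 on the log2 scale. FOXA1, a pioneer factor, was at 4.45 and 2.92 FPKM in WT and 7.61 and 8.53 FPKM in TXNDC9-KO (log2 fold change 1.14, SE 0.22, limma adjusted p = 0.00527). PPARA, a fatty acid receptor, rose by 1.37 (from 2.03 and 2.05 to 5.38 and 5.51 FPKM), its coactivator PPARGC1A by 1.82 and SP1 by 1.32 on the log2 scale. After the length and GC correction FOXA1 was at 1.02 (limma adjusted p = 0.0142), PPARGC1A at 0.96, PPARA at 0.41 and SP1 at 0.38, and none of these 4 passed. With it CEBPB (20.5, 22.3, 20.0 and 26.7 FPKM), not called on FPKM as deposited (0.11), was called higher (1.20, limma adjusted p = 0.00269). The factors with the highest means, SREBF1 (117, 114, 158 and 147 FPKM) and NR2F6 (105, 118, 56.7 and 65.9 FPKM), were not called, and NR2F6 changed sign under the length and GC correction, from −0.86 to 0.04.

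APOA1 and APOC3 lie with APOA4 and APOA5 in a cluster on chromosome 11, and all 4 were listed at 0 in every library. The tested genes around the cluster were not, and the antisense RNA APOA1-AS was above 0 only in TXNDC9-KO replicate 1. ZPR1 was at 41.3, 45.2, 19.6 and 22.4 FPKM and was called lower (log2 fold change −1.04), TAGLN, an actin-binding protein of smooth muscle, was called lower (−2.25) and the protease gene PCSK7 higher (1.32), of 7 tested among 12 listed genes. Of all tested genes 15.3% were called lower and 14.2% higher. BUD13 (13.6, 16.3, 7.98 and 8.95 FPKM), SIDT2 (18.1, 18.4, 12.98 and 13.4 FPKM), PAFAH1B2 (32.1, 37.1, 35.8 and 34.96 FPKM) and SIK3 (6.04, 5.54, 7.43 and 8.14 FPKM) were not called. Rescaling to TPM turned SIDT2 to 0.21, and the length and GC correction turned SIK3 to −0.19 and PAFAH1B2 to −0.50.

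APOE and APOC1 lie on chromosome 19 with APOC4 and APOC2, which encodes the activator of lipoprotein lipase. APOC4 was listed at 0 throughout, and APOC2 was at 0.157 and 0 FPKM in WT and 0.137 and 0 FPKM in TXNDC9-KO. TOMM40, a mitochondrial import gene directly before APOE, was at 174, 207, 68.4 and 85.3 FPKM and was called lower (log2 fold change −1.31), as were CLASRP (−1.42) and ZNF296 (−1.97), of 7 tested among 13 listed genes. The median of the 7 was −0.98, beside −0.09 for all 13246 tested genes, and −0.28 after the length and GC correction. NECTIN2 (47.0, 51.5, 27.7 and 30.1 FPKM), CLPTM1 (69.0, 92.7, 37.9 and 43.2 FPKM), BCAM (12.7, 13.6, 6.89 and 7.30 FPKM) and RELB (3.02, 4.16, 2.09 and 2.26 FPKM) were not called. All 7 had both TXNDC9-KO libraries below both WT libraries, an order held by 45.9% of all tested genes, and the 3 called lower stood beside 15.3% of all tested genes. The correction turned RELB from −0.68 to 0.22 and left BCAM at −0.02. None of the 3 called genes passed both thresholds with it: TOMM40 was at −0.28 (limma adjusted p = 0.0948), CLASRP at −0.55 (0.00547) and ZNF296 at −0.79 (0.0364). The read-through locus APOC4-APOC2 lay the other way, at 0.000558 and 0 FPKM in WT and 0.210 and 0.181 FPKM in TXNDC9-KO.

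**Figure D4:**
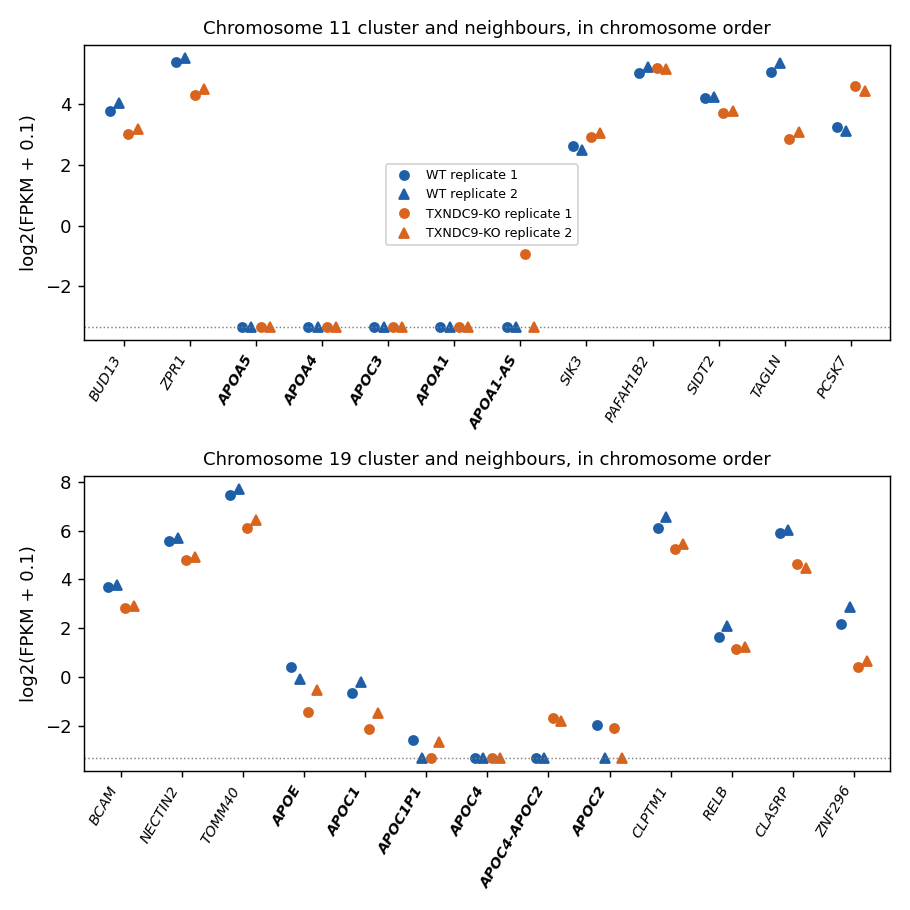
Genes are in chromosome order with symbols that start with APO in bold, each point is 1 library (blue WT, orange TXNDC9-KO), and the vertical axis is log2(FPKM + 0.1) with a dotted line at 0 FPKM. On chromosome 11 APOA1, APOC3, APOA4 and APOA5 sat on the dotted line between tested neighbours of 5.54 to 45.2 FPKM. The antisense RNA APOA1-AS left that line only in TXNDC9-KO replicate 1. On chromosome 19 APOE and APOC1 stood well under TOMM40.

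Of 17 other apolipoprotein genes and genes of lipoprotein-borne proteins, 7 were listed at 0 in all libraries, 2 were tested and 1 was called. CLU, which encodes apolipoprotein J or clusterin, a secreted chaperone found on high density lipoprotein, was at 892 and 918 FPKM in WT and 405 and 381 FPKM in TXNDC9-KO. Its log2 fold change was −1.20 (SE 0.14, limma adjusted p = 0.00102), with −1.10 after the length and GC correction and −0.52 after rescaling to TPM. APOL2, an intracellular apolipoprotein L, was at 7.48, 10.1, 7.69 and 8.83 FPKM and was not called (−0.07), and TPM (0.60) and the correction (0.27) changed its sign. CLU was thus the one apolipoprotein in these libraries with a high level and a call.

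Of 38 listed genes that help to build and export very low density lipoprotein, 28 had a mean above 1 FPKM and were tested, 10 were under it and 3 of these (MOGAT2, SMLR1 and AADAC) were listed at 0 throughout. Of those tested, 2 were called lower and 6 higher, and the median of the tested genes was 0.26 on the log2 scale, or −0.19 with the length and GC correction. P4HB encodes protein disulfide isomerase, the partner subunit of the MTTP protein, and was at 538 and 668 FPKM in WT and 310 and 329 FPKM in TXNDC9-KO. Its log2 fold change of −0.91 (limma adjusted p = 0.00397) was short of 2-fold, as was that of HSP90B1, a chaperone of the endoplasmic reticulum (−0.85, adjusted p = 0.00748). Rescaling to TPM left P4HB at −0.23 (limma adjusted p = 0.0250) and HSP90B1 at −0.17 (0.0962). The length and GC correction left P4HB at −0.36 (limma adjusted p = 0.0247) and HSP90B1 at −0.97 (0.00299). So MTTP was under 0.1 FPKM in libraries where its partner was at 310.5 FPKM or more.

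LPIN1, a phosphatidate phosphatase of triglyceride synthesis, was called higher, from 4.47 and 3.61 FPKM in WT to 24.8 and 25.2 FPKM in TXNDC9-KO (log2 fold change 2.61, SE 0.13, limma adjusted p = 0.000486). The COPII coat genes SEC23A (1.54) and SEC24D (1.20), of the vesicles that leave the endoplasmic reticulum, and ERLIN2 (1.40), SOAT1 (1.19), which esterifies cholesterol, and PNPLA3 (1.17) were called higher on the log2 scale. PNPLA2, the main triglyceride lipase of lipid droplets (−1.46), and LRPAP1, a chaperone of lipoprotein receptors (−1.26), were called lower. With the length and GC correction LPIN1 (1.99), SEC23A (1.04), PNPLA3 (1.45) and LRPAP1 (−2.02) stayed past both thresholds, while SEC24D (0.79), ERLIN2 (0.69), SOAT1 (0.23) and PNPLA2 (−0.62) did not. Called only with the correction were HSPA5 (−1.04) and PDIA3 (−1.18), both lower, and CIDEB (1.36), higher. On FPKM as deposited they were at −0.67, −0.81 and 0.59. The corrected list thus had 3 genes called lower and 4 higher.

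Receptors that bind apolipoproteins B and E were measured in the same libraries. Of 23 listed genes of receptors, uptake and efflux 13 were tested, 1 was called lower and 6 higher, beside 15.3% lower and 14.2% higher of all tested genes. The median of the 13 was 0.59, and 0.26 with the length and GC correction. LRP6, a coreceptor of Wnt ligands in the same receptor family, was at 3.14 and 3.18 FPKM in WT and 16.2 and 14.8 FPKM in TXNDC9-KO (log2 fold change 2.26, SE 0.12, limma adjusted p = 0.000486). MYLIP (1.66), which encodes a ubiquitin ligase, LRP8 (1.36), the apolipoprotein E receptor of brain and other tissues, SORT1 (1.08), which sorts apolipoprotein B, and CD36 (1.02) were also among those called higher, and LRP5 was lower (−1.05). With the correction LRP6 (1.14) and MYLIP (1.55) stayed past both thresholds and LRP8 (0.48), SORT1 (0.25), CD36 (0.26) and LRP5 (−0.99) did not. SCARB1, the receptor of high density lipoprotein (161, 180, 111 and 112 FPKM), was not called, and rescaling to TPM turned it from −0.62 to 0.06.

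Of 17 plasma lipases and transfer proteins 7 were tested, 2 were called lower and 0 higher, and the median of the tested genes was 0.03. ANGPTL4, an inhibitor of lipoprotein lipase, was at 1.55 and 2.40 FPKM in WT and 0.187 and 0.374 FPKM in TXNDC9-KO (log2 fold change −2.46, SE 0.46, limma adjusted p = 0.00507). LCAT, which esterifies cholesterol on high density lipoprotein with apolipoprotein A1 as cofactor, was at 9.40 and 12.2 FPKM in WT and 3.18 and 5.32 FPKM in TXNDC9-KO (−1.36, limma adjusted p = 0.00582). With the length and GC correction neither passed (−1.46, adjusted p = 0.0357, and −0.34, adjusted p = 0.280, from limma). PON2 (113, 112, 116 and 112 FPKM) and FURIN (33.1, 28.7, 32.4 and 32.1 FPKM), the highest of the list, had log2 fold changes of 0.03 and 0.06, and both changed sign when libraries were centred on the median.

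Across the 5 lists of other apolipoproteins, export, receptors, lipases and transcription factors, 6 genes were called lower and 16 higher. The lists had 2, 28, 13, 7 and 22 tested genes in that order. Beside these counts, and those of each list above, 15.3% of all 13246 tested genes were called lower and 14.2% higher. Without TXNDC9-KO replicate 1, or without TXNDC9-KO replicate 2, limma called 0 genes of these lists and 0 of all genes, where 7129 and 7307 genes had an unadjusted p under 0.05. Without WT replicate 1 the counts were 9 lower and 14 higher, and without WT replicate 2 they were 4 and 13. Rescaling to TPM gave 1 lower and 30 higher, and the length and GC correction 4 lower and 8 higher.

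**Figure D5:**
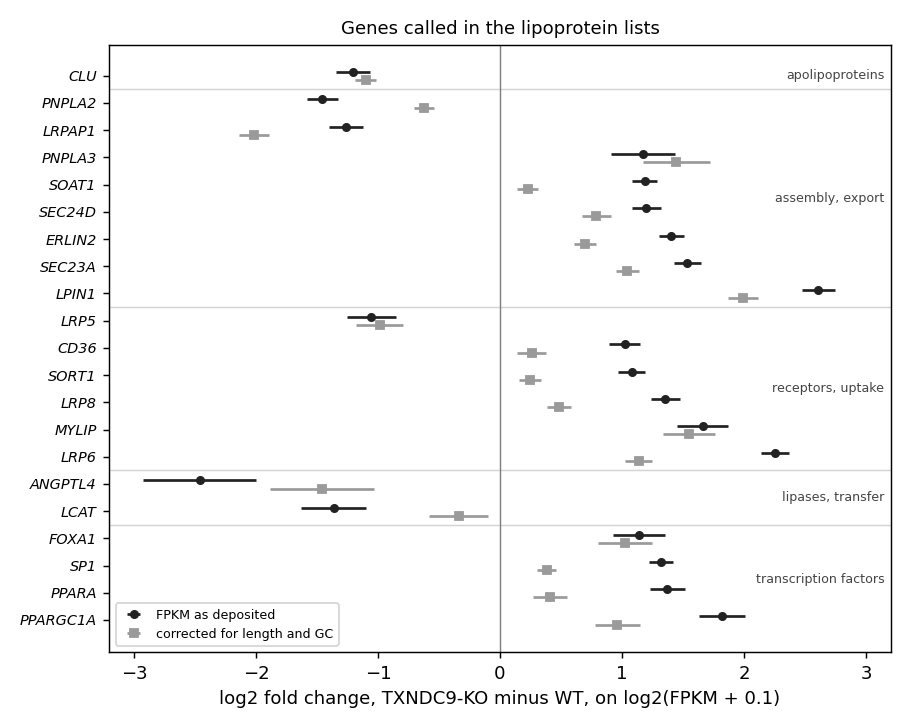
Log2 fold changes (TXNDC9-KO minus WT, log2(FPKM + 0.1)) of genes called in the 5 lists with standard errors, black for FPKM as deposited and gray after the length and GC correction. LPIN1 was at 2.61 and 1.99, while SOAT1, SORT1, CD36 and LCAT moved close to 0.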

How the data were processed

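Per the methods, reads of polyadenylated RNA from 4 HepG2 libraries were aligned to hg38 with TopHat2 and an Ensembl annotation, and the authors deposited the gene-level FPKM that Cuffdiff gave for every library. Tool versions, library normalization and strand are not given in the sources used here. Group averages and the authors' fold changes, p-values and q-values were not used. Of 231916 lines, 57979 held values. Each identifier stood on 4 lines, out of register with the symbols, and identifiers were put back in order (56935 in GENCODE release 44, 34949 with the same symbol there).

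limma 3.58.1 (R 4.3.3) was run on log2(FPKM + 0.1) of the 13246 genes with a mean above 1 FPKM, using a trended prior variance, Benjamini-Hochberg adjustment and no replicate block. Calls needed an adjusted p under 0.01 with a change of 2-fold or more. Single values were compared with exact two-sided permutation tests. At most 4.53% of low genes shared a log2 ratio between libraries. No expected share was set beside this value, so it cannot tell whether a step worth 1 read was present. Replicates correlated at 0.976 (WT) and 0.980 (TXNDC9-KO) across genes. Log2 fold changes correlated with transcript length (Spearman 0.495) and GC content (−0.462) over 13112 genes, which are not independent replicates, and a loess correction (span 0.3) for both was an alternative. Also tried were pseudocounts of 1 and 0.01, no filter, a mean above 5 FPKM, rescaling to TPM, median centring, no trend, other thresholds, the block and leaving out each library. On simulated data for TXNDC9-KO against WT, limma recovered 88.5% of 200 genes changed by 2 on the log2 scale among 13246, with 4 false calls. The simulated noise was independent between genes and held no shift tied to length or GC content. It therefore cannot give the rate of false calls in these data.

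The genes examined and all lists were chosen with earlier results of these data known. Named are the 10 genes, the called genes of each list (up to 4 with the largest change in each direction), the 2 highest of each list and the genes near the chromosome 11 and chromosome 19 clusters with a mean above 1 FPKM. A few genes that this rule names are not reported here. Any other gene was named after its values were seen. Python 3.11.15, pandas 2.3.3, numpy 2.4.6 and matplotlib 3.10.9 were used.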

Additional observations from a re-analysis of the deposited data

How the results depend on the processing

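With 2 libraries in each group an exact test cannot pass. The files hold no counts, so the counting error of low values is unknown. Of the 10 genes, 9 were under the filter, so the filtered fits bear on APOM alone. Genes called lower (2021) and higher (1885) became 447 and 4380 with TPM, 989 and 814 with the length and GC correction, 1018 and 856 when the correction went with the replicate block, 3590 and 3142 with no minimum fold, and 2146 and 1960 with the block alone. With a mean above 5 FPKM, 1220 were higher. Leaving out 1 library gave 0 to 2633 lower and 0 to 2136 higher, with 0 without either TXNDC9-KO library, where the lone library was assumed to vary like the WT libraries. Of the 10 genes, 1 (APOM) was called lower with median centring (−1.17), with the block (−1.02), without WT replicate 1 (−1.38) and at an adjusted p under 0.05 (−1.02). Leaving out a library gave 0 to 1 of the 10 genes called lower and −1.38 to −0.66 for APOM. The 5 lists (6 lower, 16 higher) had 3 lower without the filter, 1 lower and 30 higher with TPM, 10 lower after centring, 19 lower with no minimum fold, 8 higher with the correction and 9 with the correction and block. Without 1 library they had 0 to 9 lower and 0 to 14 higher. Signs changed for APOL2 (0.60 with TPM, 0.27 with the correction with or without the block, 0.14 without WT replicate 2, 0.02 without TXNDC9-KO replicate 1), FURIN (−0.0799 centred, −0.0379 without WT replicate 2), PON2 (−0.12 centred, −0.0033 without TXNDC9-KO replicate 1), PAFAH1B2 (−0.11 centred, −0.50 corrected, −0.0675 without WT replicate 1), NR2F6 (0.0388 corrected), RELB (0.22 corrected), SIK3 (−0.19 corrected), SCARB1 (0.0648 with TPM) and SIDT2 (0.21 with TPM), the corrected values being the same with the block. Without each library in turn the values ran from −0.288 to 0.138 for APOL2, from −0.0379 to 0.164 for FURIN, from −0.0675 to 0.141 for PAFAH1B2 and from −0.0033 to 0.0545 for PON2. The log2 ratio of APOE to APOC1 changed by −0.0623 in place of 0.46 without WT replicate 2, and by 0.981 without WT replicate 1. Over the 41 genes named by rule from the lists and clusters, 512 of the repeated values kept direction and side of the threshold, 97 lost the call, 20 gained it and 21 changed sign. The causes were not tested. The replicate numbers are shared by the groups only as names, as deviations from the group means of same-numbered libraries correlated at −0.0904 across genes. With them as a block the limma adjusted p of APOM was 0.00244.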
